A study of Mus musculus with 48 samples.

Results

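The NR4A and EGR genes are 2 small families of transcription factors that T cells switch on within the first hours of a T cell receptor (TCR) signal. The 6 members described here, Nr4a1, Nr4a2, Nr4a3, Egr1, Egr2 and Egr3, were taken by their gene symbols from the matrix of 53345 genes, and all 6 were present and passed the filter on low counts in every comparison. Their levels are given in CPM (a gene's expected count relative to its library's total, on the usual CPM scale) and, where genes are set against each other, in FPKM (fragments scaled to transcript length and library total), which takes transcript length into account. Regulatory T cells (Tregs) are CD4 T cells that carry Foxp3 and restrain other lymphocytes, and conventional T cells (Tcons) are the remaining CD4 T cells.

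When the TCR binds a peptide on an MHC molecule, calcium, MAP kinase and other signals reach the nucleus and start a first wave of transcription that needs no new protein. Nr4a1 (Nur77), Nr4a2 (Nurr1) and Nr4a3 (Nor1) encode orphan nuclear receptors that act largely through how much of each is made, and Nr4a1 is widely used as a reporter of recent TCR signaling. In Tregs, NR4A receptors help to maintain Foxp3, and in chronically stimulated T cells they take part in exhaustion. Egr1, Egr2 and Egr3 encode zinc finger proteins that bind GC-rich DNA. Egr2 and Egr3 induce negative regulators of TCR signaling such as Cblb, and the NAB proteins are corepressors that EGR proteins recruit.

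RNA was sequenced from splenic Tregs of female C57BL/6 mice aged 8 to 12 weeks in 32 libraries, and from the Tcons of 16 of these mice. By the study's methods each group held 4 mice and every mouse was a sample of its own, although 2 of the isotype WT IL-2 Treg libraries carry the same mouse code in the labels. Each mouse received antibody at 500 µg per dose in 2 doses, either an isotype control or a blocking antibody against MHC class II, which displays peptides to the TCR of CD4 T cells. Each mouse then received PBS or 25 µg of human IL-2 in the form of WT IL-2, the H16R mutein or the 3x mutein, which are versions weakened by substitutions, and spleens were taken on day 4. The antibody and the molecule together give 8 groups of 4 libraries in Tregs and the same 8 groups of 2 in Tcons. Tregs were the CD25-bound fraction of a magnetic isolation kit, and Tcons were its CD25-negative flow-through, so the cells were defined by CD25 at collection and not by a sort on Foxp3. All mice were of the same strain and sex and all received an antibody, so no group here is untreated. The comparisons ask how these genes respond when peptide presentation to CD4 T cells is blocked and when IL-2 is given.

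The promoters of Nr4a1, Nr4a2, Nr4a3 and Egr2 were found in the RefSeq table of GRCm38.p6 (4 of the 6 members). They are shown because the NR4A promoters share a feature of the letters themselves, the core of the cAMP response element (TGACG on either strand), the element bound by CREB and ATF factors. The lines below give, 5′ to 3′ on the strand of the gene, the bases before the transcription start site that lie in no annotated exon, with TGACG cores and CArG boxes (the element of serum response factor) in capitals.

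Nr4a1 (chr15:101266596-101266845, + strand): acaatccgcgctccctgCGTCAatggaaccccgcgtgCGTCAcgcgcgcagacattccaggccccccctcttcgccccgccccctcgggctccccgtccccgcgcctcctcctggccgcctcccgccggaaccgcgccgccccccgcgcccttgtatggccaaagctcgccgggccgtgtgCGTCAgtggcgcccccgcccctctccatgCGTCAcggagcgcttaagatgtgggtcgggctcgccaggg
Nr4a2 (chr2:57124004-57124253, - strand): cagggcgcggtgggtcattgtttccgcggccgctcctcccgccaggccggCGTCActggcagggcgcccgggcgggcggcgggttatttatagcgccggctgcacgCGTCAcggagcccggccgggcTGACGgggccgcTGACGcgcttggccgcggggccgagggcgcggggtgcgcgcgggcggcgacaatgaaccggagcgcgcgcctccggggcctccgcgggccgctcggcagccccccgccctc
Nr4a3 (chr4:48045055-48045152, + strand): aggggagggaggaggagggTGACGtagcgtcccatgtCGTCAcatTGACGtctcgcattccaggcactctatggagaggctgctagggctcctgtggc
Egr2, start site 3 (chr10:67537619-67537868, + strand): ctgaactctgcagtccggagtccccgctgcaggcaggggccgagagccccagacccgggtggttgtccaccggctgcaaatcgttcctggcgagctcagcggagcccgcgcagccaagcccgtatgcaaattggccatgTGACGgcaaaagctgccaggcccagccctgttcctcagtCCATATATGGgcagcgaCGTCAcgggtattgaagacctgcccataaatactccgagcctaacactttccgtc

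Each of the 3 NR4A promoters holds 4 TGACG cores in the window from 250 bases before to 50 bases after the start site, and 1 of those of Nr4a3 lies beyond the stretch shown. Of 32851 RefSeq promoters of the same length outside chromosome 18, 20.8% hold at least 1 such core and 0.231% hold 4 or more. The promoter of Egr2 start site 3 holds 2 cores and a CArG box, a combination found in 0.067% of promoters. Egr2 has 5 listed start sites, and the windows of start sites 3, 4 and 5 overlap, so that they show the same 2 cores and the same CArG box, while that of start site 2 holds another CArG box and that of start site 1 holds neither. The CArG box was found in 1.63% of promoters. The full palindrome TGACGTCA, which contains the core, was in none of the members' windows and in 1.79% of all promoters. The Nr4a1 window also holds an EGR site, searched as GCGTGGGCG and GCGGGGGCG on both strands and found in 3.47% of promoters, and the NR4A monomer site AAAGGTCA was in none of the members' windows and in 1.51% of all promoters. The core was searched after the letters had been seen, and these matches are descriptions of sequence, not binding sites.

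In the annotation on GRCm38, Nr4a1 lies at chr15:101254269-101274795, Nr4a2 at chr2:57106830-57124003, Nr4a3 at chr4:48045153-48086447, Egr1 at chr18:34859823-34864984, Egr2 at chr10:67535475-67542188 and Egr3 at chr14:70077203-70082614, all as protein-coding genes that overlap no other annotated gene. Per length, Nr4a1 was the highest member in Tregs, with a mean of 337.5 FPKM over the 32 libraries, and ranked 178 of 17685 protein-coding genes listed above 0. Egr1 followed at 113.2 FPKM (rank 521), and the others were lower, at 21.0 FPKM for Nr4a2, 16.3 FPKM for Nr4a3, 10.3 FPKM for Egr2 and 7.38 FPKM for Egr3. Tcons had the same leading genes, with 180.4 FPKM of Nr4a1 and 128.8 FPKM of Egr1.

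Library totals ran from 18.28 to 51.95 M expected counts, with the isotype PBS Tregs lowest in median, at 18.28 to 34.58 M, and the members had between 408 and 54670 expected counts in a Treg library. The Treg markers Foxp3, Il2ra, Ikzf2 and Ctla4 summed to between 2261 and 4162 CPM in Tregs and between 290.4 and 1357 CPM in Tcons, and the ranges did not overlap. Markers of B cells stood apart in the first library of the isotype PBS Tregs (574.9 CPM) and in the first library of the blocked WT IL-2 Tregs (536.7 CPM), against a median of 56.65 CPM over all Treg libraries, and the latter library also held 653.2 CPM of myeloid markers. S100a8 and S100a9, which mark neutrophils, were at 0 in some Treg libraries, but no list of markers of another cell type was at 0 as a whole. These markers also moved with treatment in Tregs. In the isotype arm all 6 B cell markers and all 4 dendritic cell markers were called lower after each IL-2 molecule, with median log2 differences of the B cell list from -2.46 to -3.999. After block all 6 B cell markers were called lower in PBS mice (median -1.78) and higher in WT IL-2 mice (median 2.03), where all 7 tested myeloid markers were also higher (median 4.05). The libraries that stand apart belong to these groups and weigh on these values. By group median, B cell markers in PBS mice summed to 125.15 CPM with isotype antibody and 71.755 CPM with block. Myeloid markers in WT IL-2 mice summed to 23.055 and 63.475 CPM. In H16R mice 5 of 7 myeloid markers (median 2.32) and 3 of 4 CD8 T and NK cell markers (median 1.40) were called higher after block. In 3x mice 3 of 7 myeloid, 3 of 6 B cell, 3 of 4 dendritic cell and 3 of 4 CD8 T and NK cell markers were called higher. Their part in the levels of the NR4A and EGR genes was not tested. All 12 falls of NR4A genes after block passed the threshold without the 2 libraries that stand apart as well. Calls that ended without them are given below with the changed value. Where a level differs in these bulk samples, fewer cells expressing the gene and less RNA per cell cannot be told apart.

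All 3 NR4A genes were lower after MHC II block in Tregs, whichever molecule the mice had received, while the EGR genes were not. Of the 12 NR4A comparisons all 12 passed the threshold and all were lower. Of the 12 EGR comparisons 5 passed it, 3 lower and 2 higher. All members were tested with edgeR's quasi-likelihood test across all 12392 genes kept, and p-values were adjusted by the Benjamini-Hochberg method, with 0.1 as the threshold. Members called numbered 4 of 6 in PBS mice, 6 in WT IL-2 mice, 3 in H16R mice and 4 in 3x mice, and over all genes 14.1%, 33.6%, 30.7% and 54.1% were called in either direction. Of all genes, 8.13% were called lower after block in PBS mice, 15.3% in WT IL-2 mice, 15.2% in H16R mice and 26.9% in 3x mice. Called higher were 6% in PBS mice, 18.2% in WT IL-2 mice, 15.4% in H16R mice and 27.2% in 3x mice.

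Nr4a1, the receptor used as a reporter of TCR signaling, was between 844.2 and 1307 CPM in every Treg library of the isotype arm and between 435.8 and 827.6 CPM in every library of the blocked arm. With isotype antibody it was at 971.6, 931.8, 1209 and 1307 CPM after PBS, 1025, 910.5, 1213 and 1062 CPM after WT IL-2, 1018, 1014, 965.9 and 971.9 CPM after H16R, and 844.2, 966.8, 983.7 and 993.5 CPM after 3x. With MHC II block it was at 697.7, 692.0, 621.4 and 658.5 CPM after PBS, 614.1, 665.4, 650.3 and 644.3 CPM after WT IL-2, 703.9, 768.5, 827.6 and 764.1 CPM after H16R, and 516.6, 700.1, 657.4 and 435.8 CPM after 3x. No blocked library reached the lowest isotype library, so the arms did not overlap for any molecule. The share of all genes that separate in this way was not computed, here or for the members below. The fall in Nr4a1 was 0.75 on the log2 scale in PBS mice (SE 0.11, edgeR adjusted p = 4.78e-05), 0.72 in WT IL-2 mice (adjusted p = 2.03e-05), 0.40 in H16R mice (adjusted p = 0.00979) and 0.76 in 3x mice (adjusted p = 2.94e-06). Within the isotype arm the 4 groups overlapped with their neighbors in the order PBS, WT IL-2, H16R and 3x.

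Nr4a2, which shares much of the function of Nr4a1, was low where block and a mutein were combined. With isotype antibody it was at 79.81, 95.71, 111.1 and 126.4 CPM after PBS, 78.9, 120.7, 101.9 and 125.6 CPM after WT IL-2, 71.62, 71.67, 50.5 and 85.16 CPM after H16R, and 59.58, 73.55, 71.79 and 74.68 CPM after 3x. With MHC II block it was at 68.08, 64.82, 66.23 and 70.34 CPM after PBS, 49.32, 52.2, 58.84 and 56.87 CPM after WT IL-2, 40.19, 50.72, 43.14 and 37.04 CPM after H16R, and 25.88, 43.72, 36.13 and 22.89 CPM after 3x. The blocked and isotype libraries separated for PBS, WT IL-2 and 3x and overlapped for H16R through 1 isotype library at 50.5 CPM. Nr4a2 fell after block by 0.63 on the log2 scale in PBS mice (SE 0.17, edgeR adjusted p = 0.0160), by 0.98 in WT IL-2 mice (adjusted p = 6.88e-05), by 0.73 in H16R mice (adjusted p = 0.00303) and by 1.17 in 3x mice (adjusted p = 3.42e-06).

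Nr4a3, the remaining receptor of the family, had the widest range of the 6 members in Tregs, 6.59-fold between its lowest and highest library. With isotype antibody it was at 123.9, 137.4, 176.4 and 230.6 CPM after PBS, 114.6, 153.2, 154.2 and 164.7 CPM after WT IL-2, 101.5, 102.3, 76.92 and 97.63 CPM after H16R, and 80.54, 94.44, 100.4 and 107.2 CPM after 3x. With MHC II block it was at 81.21, 75.26, 78.22 and 72.08 CPM after PBS, 55.72, 71.22, 70.3 and 71.75 CPM after WT IL-2, 54.79, 66.99, 56.5 and 48.82 CPM after H16R, and 46.24, 55.7, 49.49 and 35.02 CPM after 3x. For each of the 4 molecules every blocked library was below every isotype library. Nr4a3 fell after block by 1.14 on the log2 scale in PBS mice (SE 0.15, edgeR adjusted p = 1.52e-05), by 1.13 in WT IL-2 mice (adjusted p = 3.40e-06), by 0.77 in H16R mice (adjusted p = 0.000936) and by 1.08 in 3x mice (adjusted p = 2.24e-06).

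**Figure D1:**
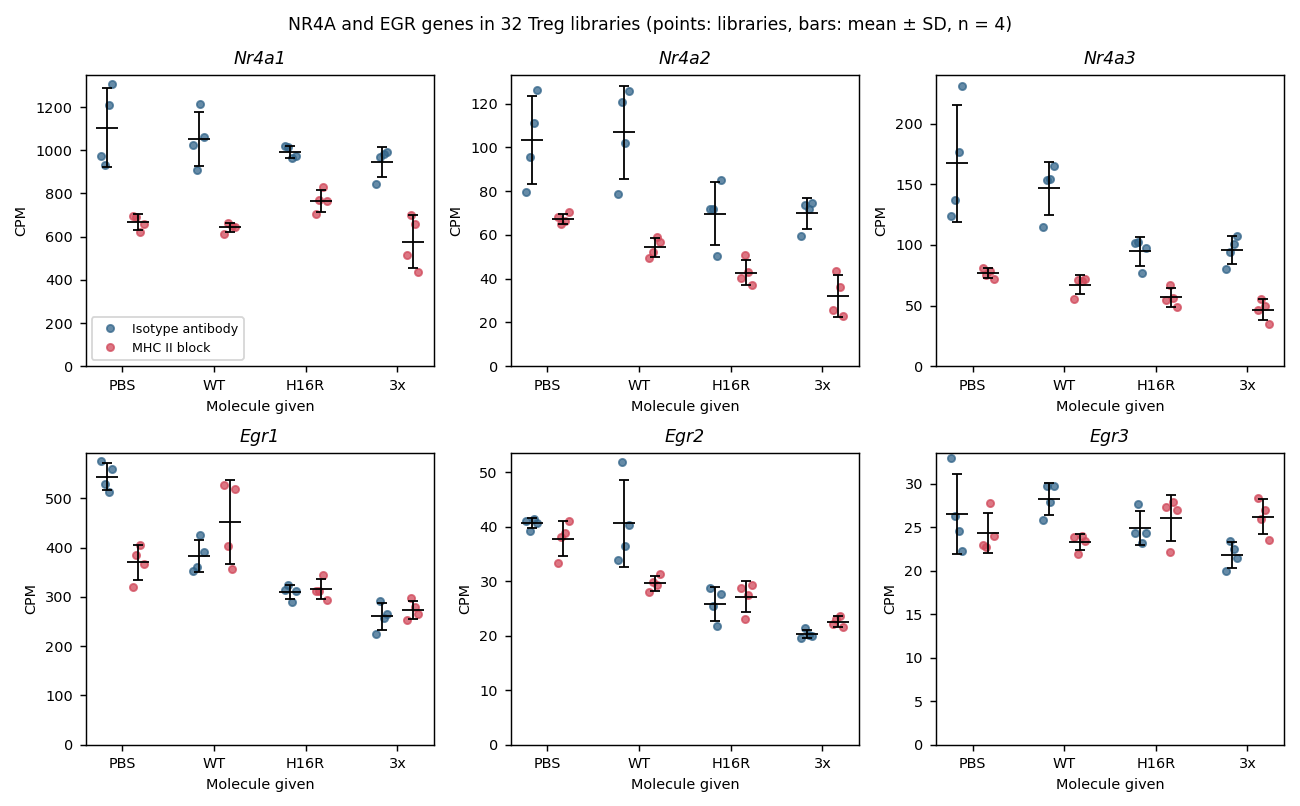
Level of each member in the 32 Treg libraries (CPM, vertical axis starting at 0) by the molecule given, with isotype libraries in blue and MHC II block libraries in red; points are libraries and black bars the mean ± SD (n = 4). The blue and red points of Nr4a1 and Nr4a3 are apart for every molecule, Egr1 separates only after PBS, and the Egr3 points lie between 19.98 and 32.94 CPM throughout.

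Egr1 moved with block in PBS mice and not in the same way with IL-2. With isotype antibody it was at 575.3, 530.0, 513.4 and 559.6 CPM after PBS, 352.4, 361.4, 425.2 and 391.9 CPM after WT IL-2, 314.9, 323.4, 288.7 and 311.3 CPM after H16R, and 225.6, 292.6, 257.2 and 265.5 CPM after 3x. With MHC II block it was at 321.1, 385.6, 405.5 and 367.8 CPM after PBS, 527.9, 403.6, 357.7 and 519.8 CPM after WT IL-2, 311.9, 312.5, 345.2 and 294.4 CPM after H16R, and 253.5, 297.1, 279.5 and 265.7 CPM after 3x. Only the PBS groups separated, and the blocked WT IL-2 libraries were spread from 357.7 to 527.9 CPM over the isotype ones. Egr1 fell after block by 0.58 on the log2 scale in PBS mice (SE 0.10, edgeR adjusted p = 0.000264). It was 0.24 higher in WT IL-2 mice (adjusted p = 0.0698), a call that ended without the 2 libraries that stand apart (0.15, adjusted p = 0.279), and its differences in H16R mice (0.002, 95% CI -0.20 to 0.20) and 3x mice (0.03, CI -0.17 to 0.23) did not pass the threshold.

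Egr2, which with Egr3 restrains TCR signaling, differed between the arms in WT IL-2 mice. With isotype antibody it was at 41.12, 39.25, 41.33 and 40.76 CPM after PBS, 33.91, 51.93, 36.39 and 40.29 CPM after WT IL-2, 28.66, 25.4, 21.71 and 27.61 CPM after H16R, and 19.59, 21.44, 20.18 and 19.92 CPM after 3x. With MHC II block it was at 33.28, 38.09, 38.8 and 41.03 CPM after PBS, 27.97, 29.79, 29.35 and 31.35 CPM after WT IL-2, 28.7, 23.08, 27.51 and 29.32 CPM after H16R, and 22.11, 23.11, 23.61 and 21.51 CPM after 3x. The arms separated after WT IL-2, with block lower, and after 3x, with block higher by a small margin. The fall in WT IL-2 mice was 0.46 on the log2 scale (SE 0.09, edgeR adjusted p = 0.000491), and the difference in 3x mice was 0.11 (CI -0.08 to 0.31, adjusted p = 0.341). In PBS mice (-0.12) and H16R mice (0.05) Egr2 did not pass the threshold.

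Egr3 had the narrowest range of the 6 members in Tregs, 1.65-fold. With isotype antibody it was at 32.94, 26.27, 24.58 and 22.32 CPM after PBS, 25.86, 29.73, 27.87 and 29.78 CPM after WT IL-2, 24.4, 27.71, 23.15 and 24.37 CPM after H16R, and 19.98, 23.49, 22.5 and 21.43 CPM after 3x. With MHC II block it was at 22.98, 22.77, 27.8 and 23.96 CPM after PBS, 23.91, 21.98, 24.06 and 23.42 CPM after WT IL-2, 27.38, 22.18, 27.9 and 27.04 CPM after H16R, and 28.39, 26.0, 26.96 and 23.58 CPM after 3x. All neighbors in the order of its 8 group means overlapped in range, although the arms were apart after WT IL-2, with block lower, and narrowly after 3x, with block higher. Egr3 fell after block by 0.28 on the log2 scale in WT IL-2 mice (SE 0.09, edgeR adjusted p = 0.0198) and rose by 0.22 in 3x mice (adjusted p = 0.0448), and the latter call ended when all libraries were thinned to the smallest total (0.19, adjusted p = 0.105).

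**Figure D2:**
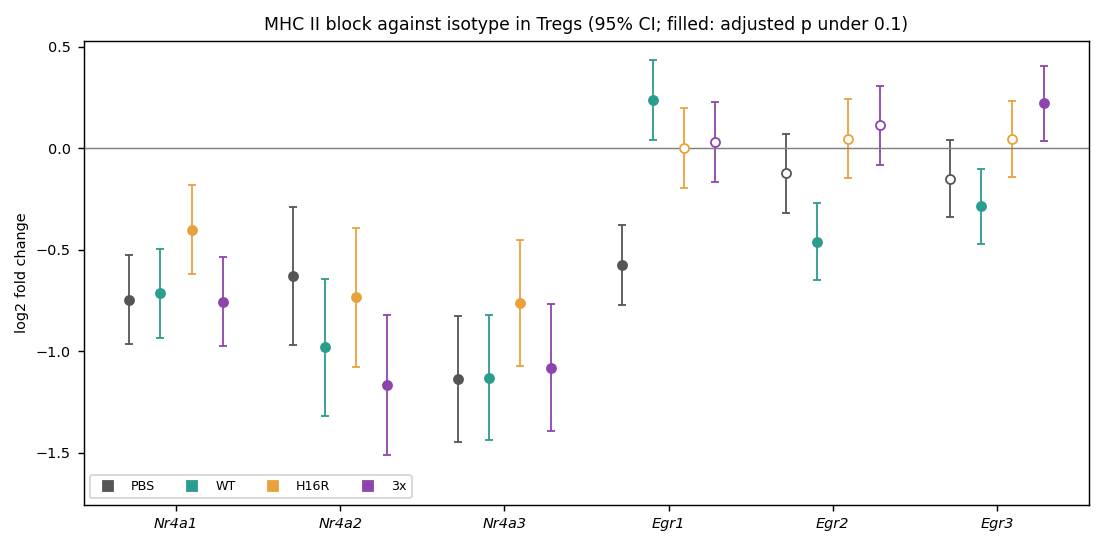
Log2 fold change of MHC II block against isotype in Tregs (vertical axis) for each member, with 1 point for each molecule and bars for the 95% CI; filled points passed an adjusted p of 0.1. All 12 NR4A points are below 0 and filled, from -0.40 to -1.17, whereas the EGR points lie between -0.58 and 0.24.

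Nr4a2, Nr4a3 and Egr2 were lower after either mutein in both arms, and Egr1 was lower after both muteins in the isotype arm and after 3x under block. After WT IL-2 only Egr1 was called in the isotype arm, lower than after PBS, and under block Egr1 was called higher and Egr2 lower. In the isotype arm 1 of 6 members was called after WT IL-2, 4 of 6 after H16R and 5 of 6 after 3x, all lower. The background for a lower call was 26.2% after WT IL-2, 32.8% after H16R and 32.3% after 3x, and 52.2%, 64.2% and 63.6% of all genes were called in either direction. The same PBS libraries serve all 3 of these comparisons. In the blocked arm 2 of 6 were called after WT IL-2, 4 of 6 after H16R and 4 of 6 after 3x, against 35.6%, 66.5% and 73% of all genes called in either direction. Called lower under block were 1, 3 and 4 members, and 1699, 4192 and 4746 of the 12392 genes tested. After H16R in both arms and after 3x under block, members were called about as often as genes in general.

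Egr1 was lower after each IL-2 molecule than after PBS in the isotype arm, with means of 544.6 ± 28.0 CPM after PBS, 382.7 ± 33.0 CPM after WT IL-2, 309.6 ± 14.8 CPM after H16R and 260.2 ± 27.6 CPM after 3x (SD, n = 4). It fell against PBS by 0.48 on the log2 scale after WT IL-2 (SE 0.10, edgeR adjusted p = 0.000225), by 0.75 after H16R (adjusted p = 2.07e-07) and by 1.01 after 3x (adjusted p = 1.40e-09). No IL-2 library of the isotype arm reached the lowest PBS library. The H16R and 3x libraries overlapped, and their difference did not pass the threshold (-0.26, adjusted p = 0.102). Under block Egr1 rose by 0.34 after WT IL-2 (SE 0.10, adjusted p = 0.00967), was lower by a value that did not pass after H16R (-0.17, adjusted p = 0.129) and fell by 0.40 after 3x (adjusted p = 0.000663). In the comparison of WT IL-2 with PBS under block, all 7 tested myeloid markers (median 4.35) and 4 of 6 B cell markers (median 1.51) were also called higher. The rise of Egr1 passed the threshold in all 45 alternatives, the fit without the libraries that stand apart among them.

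Egr2 was likewise lowest after 3x, at 20.3 ± 0.81 CPM in the isotype arm against 40.6 ± 0.94 CPM after PBS (SD, n = 4). It fell against PBS by 0.59 after H16R (SE 0.10, edgeR adjusted p = 6.50e-06) and by 0.95 after 3x (adjusted p = 3.36e-09), and its difference after WT IL-2 was 0.03 (CI -0.16 to 0.22). Under block it fell by 0.30 after WT IL-2 (adjusted p = 0.0156), by 0.42 after H16R (adjusted p = 0.000423) and by 0.71 after 3x (adjusted p = 1.94e-07). Egr3 fell by 0.23 after 3x in the isotype arm (adjusted p = 0.0323), and this call ended without the libraries that stand apart (-0.10, adjusted p = 0.316).

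Nr4a3 fell against PBS in the isotype arm by 0.75 after H16R (SE 0.15, edgeR adjusted p = 0.000102) and by 0.74 after 3x (adjusted p = 0.000120), and its difference after WT IL-2 was -0.15 (CI -0.45 to 0.15). Nr4a2 fell by 0.50 after H16R (adjusted p = 0.0111) and by 0.50 after 3x (adjusted p = 0.0108), and was 0.09 higher after WT IL-2 (CI -0.25 to 0.42). Under block both fell after the muteins. Nr4a3 fell by 0.38 after H16R (adjusted p = 0.0335, a call lost in 1 of 45 alternatives) and by 0.68 after 3x (adjusted p = 0.000275). Nr4a2 fell by 0.60 after H16R (adjusted p = 0.00311) and by 1.03 after 3x (adjusted p = 4.98e-06). Neither gene passed the threshold after WT IL-2 in either arm. Nr4a1 did not pass it for any molecule in the isotype arm, where its differences ran from -0.16 to -0.04. Its rise of 0.26 after H16R under block (adjusted p = 0.0413) ended with scaling by total counts alone (0.20, adjusted p = 0.113). Against PBS under block, 3 of 4 CD8 T and NK cell markers were called higher and 1 lower after each mutein. Of 4 dendritic cell markers 3 were called lower and 1 higher after each, and the part of these markers was not tested.

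**Figure D3:**
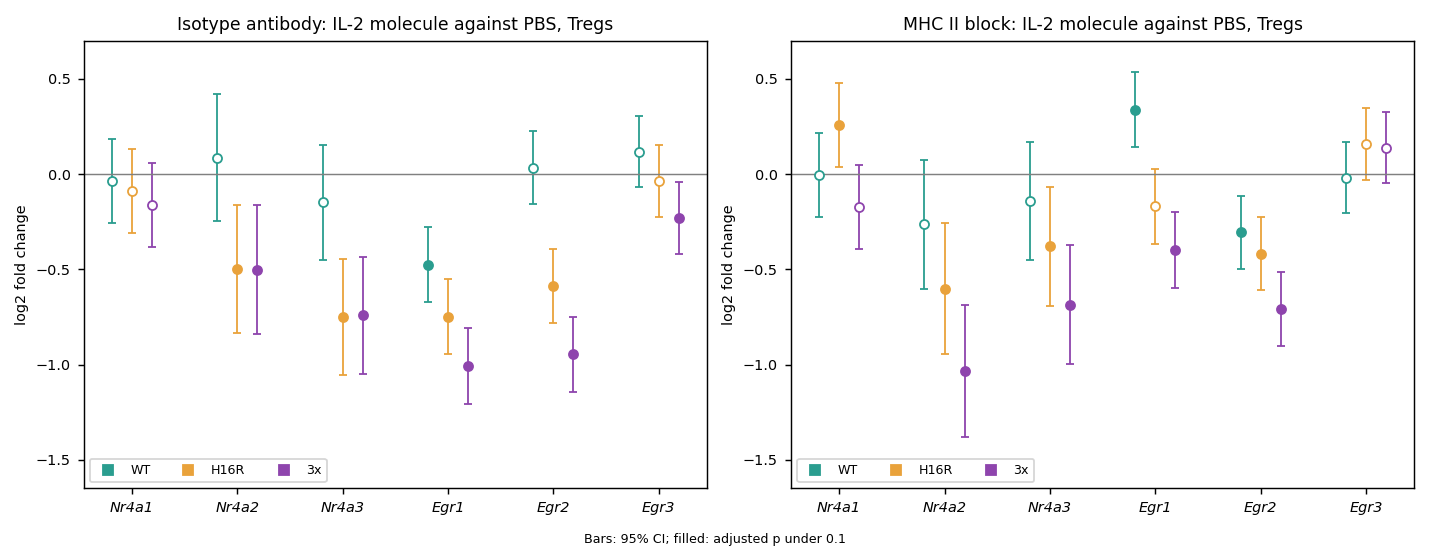
Log2 fold change of each IL-2 molecule against PBS in Tregs (vertical axis) for each member, isotype arm at left and MHC II block arm at right; bars are the 95% CI and filled points passed an adjusted p of 0.1. In the left panel the estimates of Egr1 and Egr2 are lowest after 3x, although 3x and H16R did not differ past the threshold for Egr1, and Egr1 after WT IL-2 is above 0 in the right panel.

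The molecules were also compared with each other. With isotype antibody 5 of 6 members were lower after 3x than after WT IL-2 and 4 of 6 were lower after H16R, against 17.7% and 9.76% of all genes called lower and 34.7% and 18.6% called in either direction. Egr2 was 0.98 lower after 3x than after WT IL-2 (SE 0.09, edgeR adjusted p = 4.90e-08), Nr4a3 0.59 lower (adjusted p = 0.00369), Nr4a2 0.59 lower (adjusted p = 0.00803) and Egr1 0.53 lower (adjusted p = 0.000176). Between the muteins only Egr2 passed the threshold in the isotype arm, 0.36 lower after 3x (adjusted p = 0.0198), where 5.77% of all genes were called lower and 11.5% in either direction. The difference between the muteins was -0.003 for Nr4a2 (CI -0.34 to 0.33) and 0.01 for Nr4a3 (CI -0.30 to 0.31). Under block H16R left 2 of 6 members lower and 1 higher than WT IL-2, against 57.5% of all genes called, with Egr1 0.51 lower (SE 0.10, edgeR adjusted p = 0.000132). The lower Nr4a2 of that comparison (adjusted p = 0.0951) did not pass in 28 of 45 alternatives. The lower Egr1 after 3x than after H16R under block (adjusted p = 0.0988) also did not pass in 28 of 45. In that arm 4 of 6 members were lower after 3x than after WT IL-2 and 4 of 6 lower than after H16R, against 38.7% and 12.5% of all genes called lower and 68.7% and 25.2% called in either direction, among them Nr4a1 (0.43 lower than after H16R, SE 0.11, adjusted p = 0.00588). Against WT IL-2 under block, all 6 B cell, 6 of 7 myeloid and all 4 dendritic cell markers were also called lower after H16R and after 3x, with medians of the myeloid list of -3.27 and -3.995, and their part was not tested. In the isotype arm all 4 dendritic cell markers were lower after H16R than after WT IL-2, and 6 of 8 heat shock genes after H16R and 7 of 8 after 3x.

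The difference that IL-2 made was itself compared between the arms. The log2 change of Egr1 after WT IL-2 was 0.81 higher under block than with isotype antibody (SE 0.14, edgeR adjusted p = 0.000232), a rise in place of a fall. Its changes after H16R and 3x were 0.58 (adjusted p = 0.00749) and 0.61 (adjusted p = 0.00152) higher, which were smaller falls under block. These 3 tests share the PBS libraries of both arms, and in them 11.7%, 10.6% and 20.3% of all genes were called higher and 19.7%, 19.1% and 39% in either direction. Egr1 averaged 544.6 CPM with isotype antibody and 370.0 CPM with block after PBS. After H16R it averaged 309.6 and 316.0 CPM, and after 3x 260.2 and 273.9 CPM. In all 3 tests the 6 B cell markers were called higher as well (medians 4.00 for WT IL-2, 3.27 for H16R and 3.52 for 3x), as were 7, 6 and 7 of 7 myeloid markers (medians 6.33, 4.14 and 3.72). Their part in the values of Egr1 was not tested. The log2 difference of 3x from WT IL-2 was 0.57 higher under block for Egr2 (SE 0.13, edgeR adjusted p = 0.00152), which was lower after 3x in both arms. For Egr3 it was 0.51 higher (adjusted p = 0.00308). In that test 20.7% of all genes were called higher and 43.8% in either direction. Egr2 (0.51) and Egr3 (0.33, adjusted p = 0.0775) also passed for H16R against WT IL-2, where 23.5% of all genes were called, and the call of Egr3 was lost in 12 of 45 alternatives. Nr4a1 and Nr4a3 passed the threshold in none of the 5 interaction tests. Nr4a2 passed in 1, with a larger fall after 3x under block (-0.53, adjusted p = 0.0841). That call ended without the libraries that stand apart (-0.43, adjusted p = 0.174).

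Heat shock genes moved with several of these results. The 8 genes summed to between 1821 and 2611 CPM in isotype PBS Tregs, the group with the highest median, and to between 1031 and 1229 CPM in the blocked H16R and 3x groups together. All 8 were called lower after H16R and after 3x in the isotype arm, with median differences of -0.65 and -0.73, and all 8 also under block, with medians of -0.49 and -0.50. After block 5 of 8 were called lower in PBS mice, 5 in WT IL-2 mice, 4 in H16R mice and 2 in 3x mice. The isotype PBS Tregs also had the lowest median library total. The part of heat shock in the levels of the NR4A and EGR genes was not tested. With all libraries thinned to the smallest total, Nr4a2, Nr4a3, Egr1 and Egr2 were still called lower after both muteins in the isotype arm.

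In Tcons all 6 members were lower after MHC II block averaged over the 4 molecules, and after either mutein averaged over the arms, although the group mean of Egr1 was lower after block for only 2 of the 4 molecules. Nr4a1 was at 642.8 and 653.3 CPM after PBS, 544.7 and 588.3 CPM after WT IL-2, 473.8 and 452.0 CPM after H16R and 427.5 and 460.7 CPM after 3x with isotype antibody. With block it was at 403.9 and 441.9 CPM after PBS, 374.0 and 418.8 CPM after WT IL-2, 361.5 and 342.7 CPM after H16R and 289.1 and 352.1 CPM after 3x. Blocked and isotype libraries did not overlap for any molecule. With 2 libraries in each group such a gap arises often by chance, and the share of all genes that show it was not computed. Nr4a3 was at 58.25 and 54.91 CPM after PBS, 39.39 and 75.41 CPM after WT IL-2, 34.79 and 39.66 CPM after H16R and 31.84 and 33.41 CPM after 3x with isotype antibody, and at 36.44 and 36.18, 24.31 and 29.78, 25.31 and 27.27, and 24.51 and 24.61 CPM with block. Nr4a2 ran from 26.19 to 65.09 CPM with isotype antibody and from 16.24 to 39.21 CPM with block. The 2 WT IL-2 libraries of the isotype arm lay far apart in both genes. Averaged over the 4 molecules, Nr4a1 fell after block by 0.51 on the log2 scale (SE 0.05, edgeR adjusted p = 5.05e-05), Nr4a2 by 0.64 (adjusted p = 0.00373) and Nr4a3 by 0.67 (adjusted p = 0.00172). In this comparison all 6 B cell markers were called lower (median -1.035) and 3 of 4 dendritic cell markers higher (median 0.398). Summed myeloid markers were higher with block after each IL-2 molecule and lower after PBS. The part of these markers was not tested.

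The EGR genes of Tcons also fell after block, Egr2 by 0.50 (SE 0.08, edgeR adjusted p = 0.00212), Egr3 by 0.49 (adjusted p = 0.00611) and Egr1 by 0.14 (adjusted p = 0.0324), the last of which ended in a model without the interaction of antibody and molecule (adjusted p = 0.237). Egr3 was at 44.65 and 37.43 CPM in isotype PBS Tcons and between 13.53 and 37.38 CPM in the other Tcon libraries. Egr1 was at 598.8 and 640.4 CPM after PBS, 499.5 and 437.7 CPM after WT IL-2, 358.1 and 366.1 CPM after H16R and 282.9 and 309.7 CPM after 3x in the isotype arm. The corresponding blocked libraries held 423.5 and 406.4, 494.9 and 486.1, 389.7 and 391.2, and 258.0 and 299.2 CPM of Egr1. The arms overlapped after WT IL-2 and after 3x, and they separated after PBS with block lower and after H16R with block higher. Over all genes 20.2% were called lower after block in Tcons, of 40.3% called in either direction. The markers of other cells that moved with block in Tcons, given above, moved in this same comparison, and their part was not tested.

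Averaged over the arms, all 6 members were lower in Tcons after H16R and all 6 after 3x, against 19.2% and 9.32% of all genes called lower, and 2 of 6 after WT IL-2, against 16.4%. In either direction 40.9% of all genes were called after H16R, 17.8% after 3x and 38.4% after WT IL-2. The falls after 3x ran from 0.48 for Nr4a1 (SE 0.07, edgeR adjusted p = 0.00211) to 0.90 for Nr4a2 (adjusted p = 0.00885). After WT IL-2 Egr3 fell by 0.49 (SE 0.14, adjusted p = 0.0264) and Egr2 by 0.29 (adjusted p = 0.0860), and the call of Egr2 was lost in 14 of 28 alternatives, with adjusted p up to 0.261. Without the second isotype WT IL-2 library 5 members were called, and that library held 1357 CPM of the Treg markers against 525.4 CPM in the other library of its group. The isotype PBS Tcons also held the most B cell markers, 812.5 to 887.3 CPM against 109 to 397.6 CPM in the other groups, and the blocked WT IL-2 Tcons the most myeloid markers, 614 to 747.5 CPM. After H16R 5 of 6 B cell markers and 6 of 8 heat shock genes were called lower, and 3 of 4 CD8 T and NK cell and 3 of 3 erythroid markers higher. After 3x 3 of 6 B cell markers and 5 of 8 heat shock genes were lower, and 2 of 4 CD8 T and NK cell markers higher. After WT IL-2 3 of 6 B cell markers were lower, and 4 of 4 CD8 T and NK cell, 3 of 4 dendritic cell and 3 of 3 erythroid markers higher. The part of these genes in the values of the members was not tested.

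In the same mice Tregs held more of the NR4A transcripts than Tcons, whereas the EGR genes differed by less and in both directions. Nr4a1, Nr4a2 and Nr4a3 were higher in the Tregs of 16 of 16 mice, with Treg to Tcon ratios of CPM from 1.43 to 2.24 (median 1.83), 1.59 to 2.79 (median 2.25) and 1.89 to 2.92 (median 2.34). Egr1 was higher in the Tregs of 1 of 16 mice, with ratios from 0.71 to 1.07 (median 0.85). Egr2 was higher in Tregs in 11 mice and Egr3 in 10 of 16. Markers of other cells also differed between the fractions, and over the mean of the 8 groups all 6 B cell, 8 myeloid, 4 dendritic cell, 4 CD8 T and NK cell and 3 erythroid markers were called lower in Tregs, with list medians from -1.42 to -2.55, as were 7 of 8 heat shock genes. Their part in these differences was not tested.

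With the mouse as a block, all 6 members passed the threshold over the mean of the 8 groups, but so did 82.5% of the 12844 genes tested. Nr4a1 was 0.93 higher in Tregs (SE 0.03, edgeR adjusted p = 1.13e-12), Nr4a2 1.20 higher (adjusted p = 3.70e-11) and Nr4a3 1.32 higher (adjusted p = 2.41e-12). The EGR differences were small, 0.22 for Egr2 (adjusted p = 4.58e-05), 0.20 for Egr3 (adjusted p = 0.00173) and -0.13 for Egr1 (adjusted p = 0.00322). In PBS mice alone Egr3 was 0.26 lower in Tregs (SE 0.09, adjusted p = 0.0366), a call that ended without the mouse in the model (adjusted p = 0.131), and 55.5% of all genes were called.

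**Figure D4:**
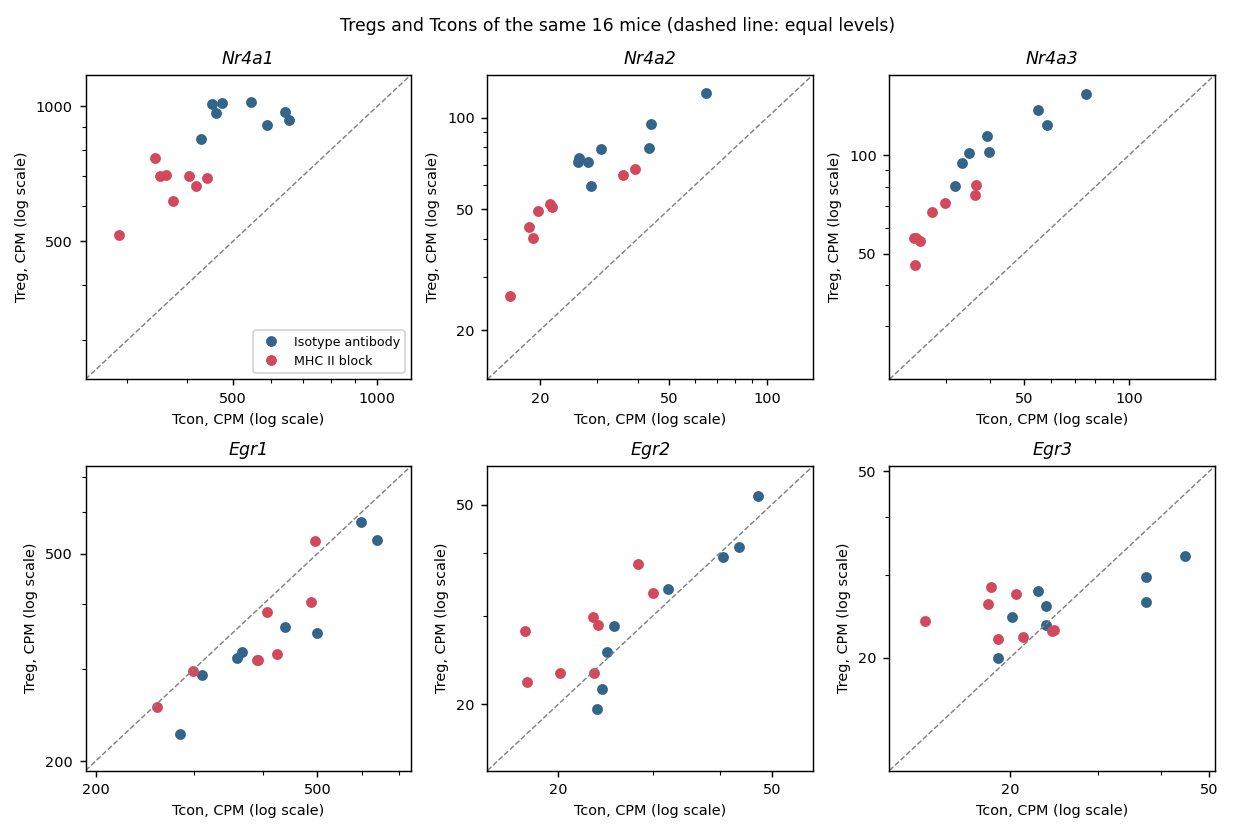
Level of each member in the Tregs (vertical axis) against the Tcons (horizontal axis) of the same mouse, both in CPM on log scales, with isotype mice in blue, blocked mice in red and equal levels on the dashed line. All 16 points of each NR4A gene lie above the line, and those of Egr1 lie on or below it except 1.

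The difference between the cell types moved with treatment for some members. The log2 change after block was more positive in Tregs than in Tcons for Egr3 (0.38, SE 0.09, edgeR adjusted p = 0.0179) and Egr2 (0.32, adjusted p = 0.00884). In Tcons Egr2 fell after block by 0.50 and Egr3 by 0.49, so the higher value does not mark a stronger effect in Tregs. In this test 14.8% of all genes were called higher and 24.4% in either direction. No NR4A gene passed it (adjusted p from 0.112 to 0.806), although Nr4a3 (-0.19) passed it in 9 of 28 alternatives. The call of Egr2 ended without the mouse in the model (adjusted p = 0.128). The log2 change after IL-2, averaged over the 3 molecules, was more positive in Tregs than in Tcons for Egr3 (0.60, adjusted p = 0.000871), Nr4a1 (0.36, adjusted p = 0.000411) and Nr4a2 (0.35, adjusted p = 0.0180). In Tcons these genes were called lower after either mutein. In this test 27.1% of all genes were called higher and 51% in either direction. The call of Nr4a2 ended without the mice that stand apart (0.27, adjusted p = 0.117). In the test of block all 6 B cell markers (median 1.45) and 3 of 4 CD8 T and NK cell markers were called higher and 6 of 8 heat shock genes lower. In that of IL-2 all 4 dendritic cell markers and 3 of 4 CD8 T and NK cell markers were lower, and the part of these genes was not tested. Egr3 was below 1 in Treg to Tcon ratio in all 4 PBS mice, from 0.70 to 0.94, and above 1 in all 4 H16R mice, from 1.04 to 1.33. It was above 1 in 3 of 4 mice after WT IL-2, from 0.795 to 1.77, and in 3 of 4 after 3x, from 0.996 to 1.55.

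Other genes of the TCR response shared part of this pattern, in lists chosen with earlier results of these data known. The first list holds genes that the paper names in a module of these same libraries that correlated negatively with MHC II block. Their counts are therefore a description and not independent evidence. Of 18 TCR-induced activation genes, 11 were called lower and 1 higher after block in PBS mice, and 16 lower and 1 higher in WT IL-2 mice, with median log2 differences of -0.41 and -0.50 against -0.007 and 0.011 over all genes tested. In H16R mice 9 were lower and 2 higher, with a median of -0.20, and in 3x mice 9 were lower and 7 higher, with a median of -0.22. Of all genes, 8.13% were called lower after block in PBS mice, 15.3% in WT IL-2 mice, 15.2% in H16R mice and 26.9% in 3x mice, and in 3x mice 27.2% were called higher. Cd69, an early activation antigen, was lower after block for every molecule, by 0.42 in PBS mice (SE 0.08, edgeR adjusted p = 0.000748) and by 0.90 in 3x mice (adjusted p = 6.24e-10), whereas Cd5, whose level follows TCR signal strength, was 0.18 higher in PBS mice (adjusted p = 0.0129) and 0.30 lower in WT IL-2 mice (adjusted p = 3.25e-05). Irf4, a factor of effector Tregs, fell by 0.58 in PBS mice (adjusted p = 0.00106) and by 0.32 in WT IL-2 mice (adjusted p = 0.0320) and did not pass in the mutein mice. Cd83, a surface protein of activated cells, fell by 1.13 in PBS mice and fell by 1.36 in 3x mice.

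Among 16 immediate early genes, of which 15 were tested, 9 were called lower after block in PBS mice, 6 in WT IL-2 mice, 10 in H16R mice and 14 in 3x mice, against 8.13%, 15.3%, 15.2% and 26.9% of all genes. In these comparisons 0, 1, 0 and 1 were called higher, namely Jun in WT IL-2 mice (0.25) and, in 3x mice, Ier3, a survival gene (2.09, the largest change of the list). Fosl2, which encodes an AP-1 subunit, fell by 0.91 in PBS mice and 0.92 in WT IL-2 mice. After the muteins Atf3, a stress-induced factor of the ATF family, and Fosb were among the most reduced, Atf3 by 2.15 after H16R and 2.02 after 3x in the isotype arm.

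The EGR partners and targets did not move as a unit. Egr4, the remaining member of the EGR family, fell after block for every molecule, by 0.76 in PBS mice (SE 0.16, edgeR adjusted p = 0.00246), 0.75 in WT IL-2 mice, 0.39 in H16R mice and 0.60 in 3x mice. Nab1, an EGR corepressor, was higher after block in H16R mice (0.49, adjusted p = 9.29e-05) and 3x mice (0.74, adjusted p = 2.52e-08), and in the blocked arm it rose by 1.00 after 3x against PBS (adjusted p = 9.15e-12). Nab2, the other corepressor, rose by 0.40 in that comparison (adjusted p = 3.60e-07). Of the 9 genes of this list, 5 rose and 2 fell after 3x in the isotype arm, with a median of 0.26, where 63.6% of all genes were called in either direction and 32.3% lower. Of the 7 tested genes among 8 NR4A partners and targets, a list that holds Foxp3, Ikzf2 and Ikzf4, 5 fell and 1 rose after block in 3x mice, where 26.9% of all genes were called lower and 27.2% higher, among them Ikzf4 (0.40 lower, edgeR adjusted p = 0.000664). In WT IL-2 mice and in H16R mice 4 of the 7 fell and none rose, and in PBS mice, where all 3 NR4A genes fell, 1 fell and none rose, with a median of 0.05. Tox2, a partner of NR4A factors in chronically stimulated T cells, fell by 1.07 after 3x in the isotype arm, where 5 of the 7 rose and 63.6% of all genes were called in either direction.

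Over the 32 Treg libraries the NR4A genes resembled each other more than they resembled the EGR genes. Pearson's r of log2 CPM, a description over libraries that share groups and with no test, was 0.96 between Nr4a2 and Nr4a3, 0.86 between Nr4a1 and Nr4a3 and 0.80 between Nr4a1 and Nr4a2. It was 0.73 between Egr1 and Egr2, and between Egr3 and the other members it ran from 0.06 to 0.37. After the group means were removed, Nr4a2 and Nr4a3 still correlated at 0.86, and Nr4a1 at 0.69 with Nr4a3 and 0.60 with Nr4a2. Egr1 correlated at 0.16 with Egr2 and 0.31 with Egr3, and Egr2 at 0.40 with Egr3. Among 9507 genes with a mean above 5 CPM, the genes most like Nr4a1 were Csrnp1, Ets2, Gpr132, Snx18 and Tob2 (r from 0.908 to 0.925), those most like Nr4a2 were Rel, Nr4a3, Zc3h12a, Tgif1 and Per1 (0.944 to 0.965), and those most like Nr4a3 were Ifrd1, Nr4a2, Tob2, Fosl2 and Rel (0.938 to 0.961). The nearest to Egr1 were Herpud1, Nr1d1, Atf3, Rhob and Dennd3 (0.911 to 0.944), to Egr2 Il1r2, Atp9a, Ier5l, Relb and Npas4 (0.897 to 0.936) and to Egr3 Pfkl, Timm17b, Gps1, St6galnac4 and Nfkbib (0.663 to 0.808).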

How the data were processed

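RNA from 32 Treg and 16 Tcon libraries had been made into stranded mRNA libraries, aligned to the mouse B38 genome with OSA in Omicsoft Array Suite and quantified with RSEM against a GENCODE gene model by the authors. The authors deposited expected counts per gene (estimated counts, of which 74.3% of the nonzero values were whole within 0.001) and FPKM values, and both were used as deposited. The deposited tables of the authors' own comparisons hold log2 fold changes and p-values from DESeq2 1.30.1 and were not used. Reads shared between related genes were divided by RSEM before deposit, which makes counts of similar genes less certain.

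Expected counts were rounded and tested with edgeR 4.0.16 (R 4.3.3, TMM scaling, quasi-likelihood test). Genes were kept if protein-coding in GENCODE vM21 and above 0.5 CPM in at least 4 fitted libraries, which left 12392 genes in the Treg fit, 12844 in the fit of both cell types and 12526 in the Tcon fit. P-values were adjusted by the Benjamini-Hochberg method over all genes of a fit, and 0.1 was the threshold. Groups were the 8 combinations of antibody and molecule. The Treg fit held all 32 libraries, the Tcon fit all 16, and the comparison of cell types the 16 mice with both, with the mouse as a block. The mouse comes from the code in the labels, and within each of the 8 groups the difference between the mice correlated between the cell types (0.205 to 0.623). Mismatched mice were not compared in this way, so these values do not by themselves show the pairing. In the labels 2 isotype WT IL-2 Treg libraries share a mouse code. Both were kept as separate samples, since the study's methods give 4 mice per group, each processed on its own. No 2 libraries of a group agreed within sampling noise (chi-square per gene at least 4.144 over 56 pairs). This check could find copies of a library, but 2 libraries made from 1 mouse could also differ by more than sampling noise. It does not settle whether the shared code marks 1 mouse.

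Totals were 18.28 to 51.24 M expected counts in Tregs (median 40.71) and 31.31 to 51.95 M in Tcons (median 38.24). The alternatives were DESeq2 1.42.0, other scalings and filters, limma 3.58.1 on log2(FPKM + 1) and log2(FPKM + 0.1), thinning to the smallest total, other models, and leaving out libraries. The scripts were tested on simulated data. The 6 members, Egr4, Nab1, Nab2, Cd69, Cd5 and Irf4 could be named in any comparison, with up to 3 genes of each list that had the largest change past the threshold, and the 5 genes most like each member by Pearson's r. The members and lists were chosen with earlier results of these data known. RefSeq promoters on chromosome 18 were not used here.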

Additional observations from a re-analysis of the deposited data

Results flagged for a closer look

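In 2 of 48 combinations of member and Treg group, 1 library stood apart from the other 3 by Dixon's criterion, and chance gives this in about 1 of 20. They were Nr4a3 in the first blocked WT IL-2 library, at 55.72 CPM below 70.3 to 71.75 CPM, and Egr3 in the second blocked H16R library, at 22.18 CPM below 27.04 to 27.9 CPM. The former is also the Treg library with the most myeloid markers, whose part in this value was not tested.

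The response to IL-2 differed between the arms, by the test of the difference itself (log2, block minus isotype), for Egr1 after WT IL-2 (0.812), H16R (0.578) and 3x (0.609). Egr2 differed after WT IL-2 (-0.338, edgeR adjusted p = 0.0886), a call lost in 16 of 45 alternatives, among them the fit without the libraries that stand apart (-0.33, adjusted p = 0.136), and, against WT IL-2, after H16R (0.509) and 3x (0.574). Egr3 differed after 3x (0.371; without the libraries that stand apart 0.24, adjusted p = 0.119) and, against WT IL-2, after H16R (0.33, lost in 12 of 45 alternatives) and 3x (0.507). Nr4a2 differed after 3x (-0.534).

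Between the cell types, the log2 change after block was more positive in Tregs than in Tcons for Egr2 (0.321) and Egr3 (0.376). That after IL-2 was more positive in Tregs for Egr3 (0.6), Nr4a1 (0.361) and Nr4a2 (0.35).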

How the results depend on the processing

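Of 174 tests of a member in a comparison, 105 passed the threshold, 82 of them under every alternative run, and none of the 105 changed sign. Of the 69 that did not pass, 44 did not pass under any alternative. The causes of the changes below were not tested.

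Counts of members called moved as follows. Between 3x and H16R under block (4 called), limma without a filter and thinning each gave 2, and leaving out 1 library gave 2 to 5. Between them with isotype antibody (1), DESeq2, RLE scaling, limma with either pseudocount and leaving out the libraries that stand apart gave 2, fitting only the groups compared gave 3, and leaving out 1 library gave 1 to 2. For H16R against WT IL-2 under block (3), the fit without the libraries that stand apart gave 5, and leaving out 1 library gave 1 (without the third blocked H16R library) to 5 (without the second), and with isotype antibody (4) it gave 2 (without the third H16R library) to 4. For WT IL-2 against PBS with isotype antibody (1), the fit without the libraries that stand apart gave 2, and leaving out 1 library gave 1 to 2.

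For the interaction of 3x and block (3), leaving out the libraries that stand apart gave 1, and leaving out 1 library gave 1 (without the first isotype PBS library) to 3. For that of H16R (1), only the groups compared gave 2, and leaving out 1 library gave 1 to 2. For that of WT IL-2 (2), limma under all 3 settings, thinning, only the groups compared and leaving out the libraries that stand apart gave 1, and leaving out 1 library gave 1 to 2. For H16R against WT IL-2 (2), limma without a filter gave 1 and leaving out 1 library gave 1 to 3.

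For WT IL-2 in Tcons (2), all biotypes, limma without a filter and the model without interaction gave 1, and leaving out 1 library gave 1 to 5. With the label's number as a replicate block, the interaction of H16R against WT IL-2 gave 1. These numbers do not pair the Treg libraries, since 31 of 105 same-number pairs correlated above 0.1 (median 0.03). Without the mouse as a replicate block, the comparison of cell types in PBS mice (6) gave 3 and that of the block effect (2) gave 1, and leaving out 1 mouse in PBS mice gave 3 (without the second isotype PBS mouse) to 6.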
